A study of Mus musculus with 8 samples.

Results

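The glucocorticoid receptor gene *Nr3c1* and 6 genes known to respond to glucocorticoids, *Tsc22d3*, *Fkbp5*, *Klf9*, *Zbtb16*, *Dusp1* and *Errfi1*, were examined in RNA-Seq data of mouse kidney tubuloids. The genes were taken by symbol and make up 7 of the 24063 gene symbols and 9 of the 33068 transcripts in the deposited tables. Tubuloids form when fragments of kidney tubules, here from mice labelled postnatal day 7 to 10, are grown between layers of Matrigel. All cultures carried the genotype Pkd2fl/fl Pax8rtTA TetOCre mTmG, in which doxycycline starts a *Pax8*-driven Cre in renal epithelium, and no doxycycline is named for these 8 cultures. For 24 h, 4 cultures received 20 ng/ml glial-derived neurotrophic factor (GDNF), while 4 control cultures received the same growth factor medium (HGF, EGF, FGF and serum) without it. RNA was taken on culture day 7, which for the pulsed cultures was 6 days after the pulse. The comparison asks whether the receptor and its targets differed in level after the pulse. No source used here names a glucocorticoid added to the medium or gives a hormone level.

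Glucocorticoids enter cells and bind the receptor, which waits in the cytoplasm in a complex with the chaperone HSP90 and its partners. The bound receptor moves to the nucleus, where it switches on genes such as *Tsc22d3* and *Fkbp5* through response elements in the DNA and holds down many inflammatory genes. In the kidney, glucocorticoids act on tubule transport and maturation, and the related mineralocorticoid receptor binds the same hormones unless they are inactivated by the enzyme HSD11B2.

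Total counts ranged from 72991721 to 97490625 per culture, over transcripts, with reads shared between transcripts of a gene counted in each. Of each group, 2 cultures held mainly Xist RNA (3 and 7 of the controls, 6 and 12 with GDNF) and the other 2 mainly Y-linked RNA. Control culture 3 stood apart in its composition, with 32.9% of counts in short transcripts (up to 1398 bases, the lowest quartile of length) against 20.2% to 27.6% in the other 7 cultures, and had the lowest normalization factor (0.790). TPM, the authors' transcript abundance per length, was shifted upward in general. Over the 13698 genes that averaged 1 TPM or more, the median log2 ratio of GDNF to control was 0.40, and 78.6% had the higher mean after GDNF. Counts scaled by library size and TMM factors (CPM) removed most of that shift, with a median log2 fold change of 0.03. TPM is therefore used below for levels and CPM for the main comparison. Group differences in TPM are also given, and they include this general shift unless TPM was rescaled. Markers of kidney epithelium were present in all cultures but summed to between 447 and 3324 CPM in controls and between 909 and 1667 CPM after GDNF. The highest sums, 3009 and 3324 CPM in control cultures 3 and 21, came mostly from *Krt8* (1041 and 1315 CPM) and *Krt18* (1074 and 1216 CPM). They therefore do not give the epithelial share of these cultures. Stromal markers summed to between 552 and 3375 CPM in controls and between 464 and 2409 CPM after GDNF. Endothelial markers summed to 18.7 to 61.6 CPM, leukocyte markers to 7.24 to 25.8 CPM with *Cd3e* at 0, and podocyte markers to at most 129 CPM over the 8 cultures. In these bulk samples, a change in the share of cells that express a gene and a change in RNA per cell cannot be told apart.

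By edgeR's quasi-likelihood test, 0 of the 7 genes differed between GDNF and control at an adjusted p of 0.05, and 0.0% of all 16557 genes tested did (the smallest adjusted p was 0.167). Without adjustment, at p of 0.05, 1 of the 7 was called, *Tsc22d3*, which was lower, against 22.1% of all genes in either direction (9.25% higher and 12.9% lower). DESeq2 gave an adjusted p for 6 of the 7, all but *Zbtb16*, and called 0 of the 6 at 0.05, against 14.7% of all genes for which it gave one, and it called 1 of the 7, again *Tsc22d3*, at an unadjusted p of 0.05. The fitted fold changes of the 7 genes were mixed in sign, with 4 positive and 3 negative values and a median log2 fold change of 0.21, while the median of all genes was 0.03. With offsets for transcript length the median of the 7 was -0.04, and 0 of the 7 were called without adjustment, against 17.6% of all genes in either direction (5.62% higher).

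**Figure D1:**
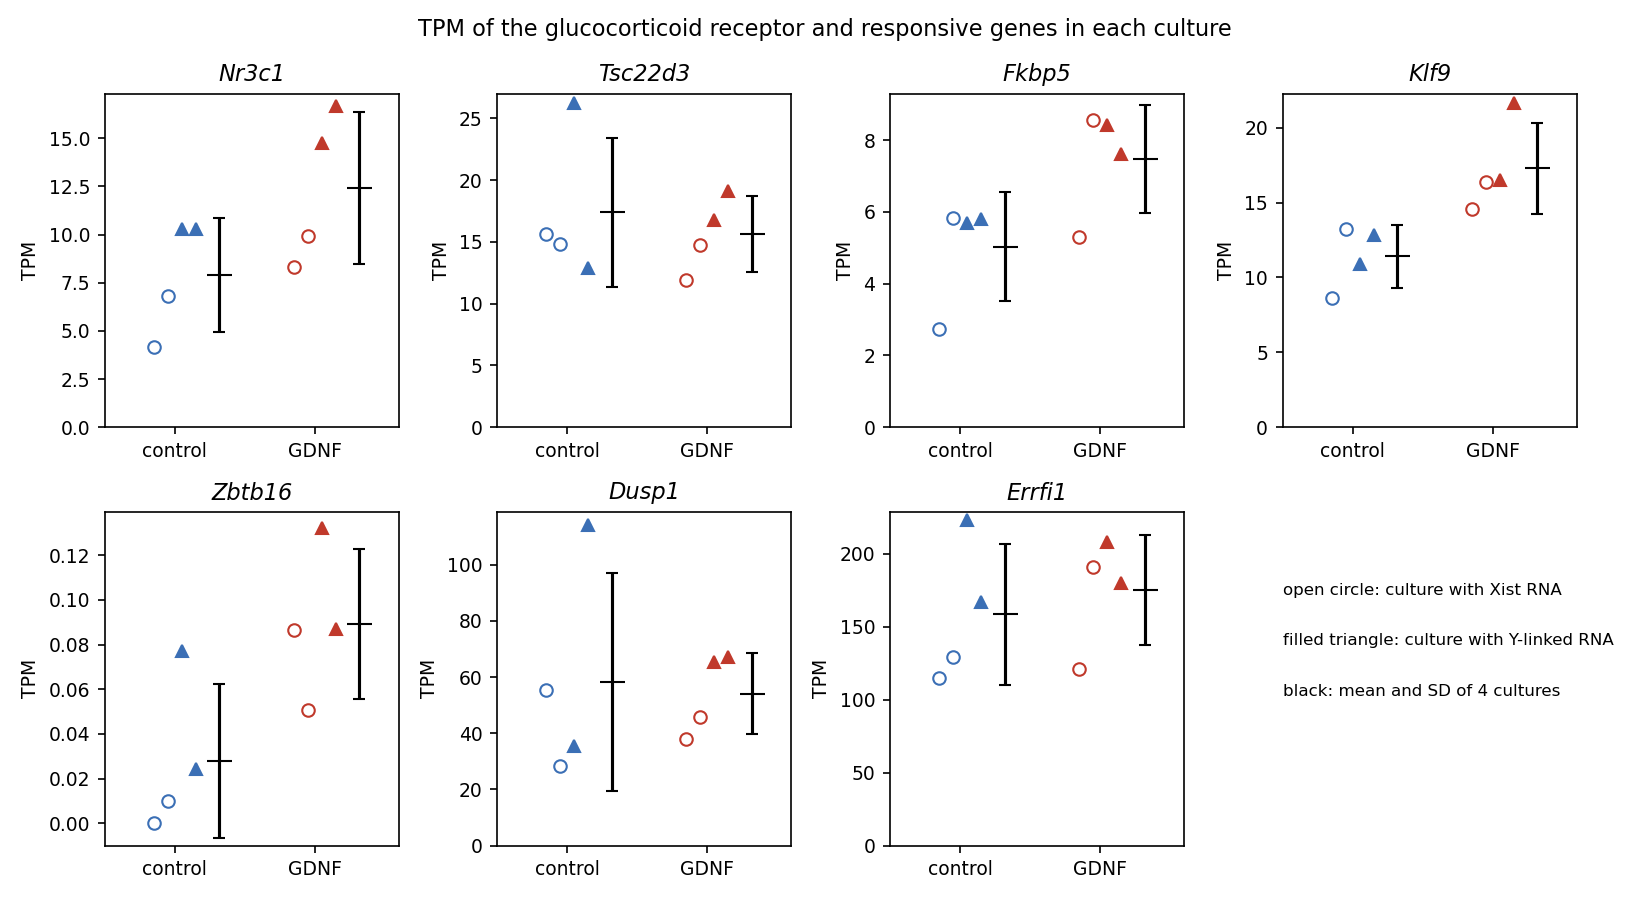
TPM of each gene (vertical axis, linear, its own scale in each panel) in 4 control and 4 GDNF cultures, with the black mark and bar giving the mean and SD of each group. *Klf9* is the gene whose groups do not overlap, with control cultures between 8.61 and 13.2 TPM and GDNF cultures between 14.6 and 21.6 TPM.

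The 7 genes spanned a wide range of expression. In controls, the order of mean TPM was *Errfi1* (159 ± 48.3, SD, n = 4), *Dusp1* (58.3 ± 38.9), *Tsc22d3* (17.4 ± 6.03), *Klf9* (11.4 ± 2.13), *Nr3c1* (7.90 ± 2.98), *Fkbp5* (5.02 ± 1.52) and *Zbtb16* (0.0278 ± 0.0344). *Errfi1* was above *Dusp1* and *Dusp1* above *Tsc22d3* in every control culture, and *Zbtb16* was below all others. The ranges of *Tsc22d3* and *Klf9*, of *Klf9* and *Nr3c1*, and of *Nr3c1* and *Fkbp5* overlapped between cultures, although within each of the 4 controls the genes came in this same order. After GDNF the order of means was the same except that *Klf9* (17.3 ± 3.03 TPM, n = 4) came above *Tsc22d3* (15.6 ± 3.05 TPM), which held within 3 of 4 cultures. The ranges of these neighbours overlapped again, while *Tsc22d3* was above *Nr3c1* and *Nr3c1* above *Fkbp5* within 4 of 4 GDNF cultures. Over all 8 cultures, *Errfi1* stood at percentile 96.7 of the 20312 genes with counts, *Dusp1* at 90.2, *Tsc22d3* at 72.0, *Klf9* at 69.5, *Nr3c1* at 62.6, *Fkbp5* at 54.0 and *Zbtb16* at 13.6.

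*Nr3c1*, the receptor itself, lies on chromosome 18 from 39410545 to 39519421 (build GRCm38, as for all coordinates here) and is listed as 1 transcript of 6329 bases. It was at 4.17, 6.84, 10.3 and 10.3 TPM in control cultures 3, 7, 14 and 21, and at 8.29, 9.91, 14.8 and 16.7 TPM in GDNF cultures 6, 12, 17 and 22. The difference of 4.52 TPM was above the SD of each group, but the groups overlapped and the test did not call it (7.90 ± 2.98 against 12.4 ± 3.97, two-sided exact permutation, p = 0.171). In CPM the log2 fold change was 0.29 with a standard error of 0.25 (edgeR, adjusted p = 0.502) and a 95% interval from -0.20 to 0.77, and with offsets for transcript length it turned to -0.04.

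*Nr3c1* was low in each of the 4 cultures with Xist RNA and high in each of the 4 with Y-linked RNA. The Xist cultures had the lower culture numbers (3, 6, 7 and 12) and the Y-linked cultures the higher (14, 17, 21 and 22). Kind of culture therefore cannot be told apart from whatever goes with these numbers, whose meaning is not given in the sources used here. The Xist cultures lay between 22.6 and 31.4 CPM and the Y-linked cultures between 37.8 and 50.0 CPM, without overlap. This split was noticed in these values. No test of it is reported here, nor the share of all genes that divide in this way. Within the Xist cultures the mean was 24.8 CPM in controls and 29.7 CPM after GDNF (log2 ratio 0.26, n = 2 each), and within the Y-linked cultures 39.1 and 48.4 CPM (log2 ratio 0.31, n = 2 each). With the kind of culture as a covariate, the log2 fold change was 0.28 with a standard error of 0.13 (edgeR, unadjusted p = 0.0555, adjusted p = 0.217). The 6 responsive genes did not divide in this way, since their values in the 2 kinds of culture overlapped. The other steroid receptor on the list, the mineralocorticoid receptor gene *Nr3c2*, had 1.37 ± 0.573 TPM in controls and 2.47 ± 0.744 TPM after GDNF (n = 4 each), below *Nr3c1* in both groups. In CPM, *Nr3c2* overlapped between groups, at 1.83 to 5.02 in controls and 3.01 to 7.03 after GDNF.

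**Figure D2:**
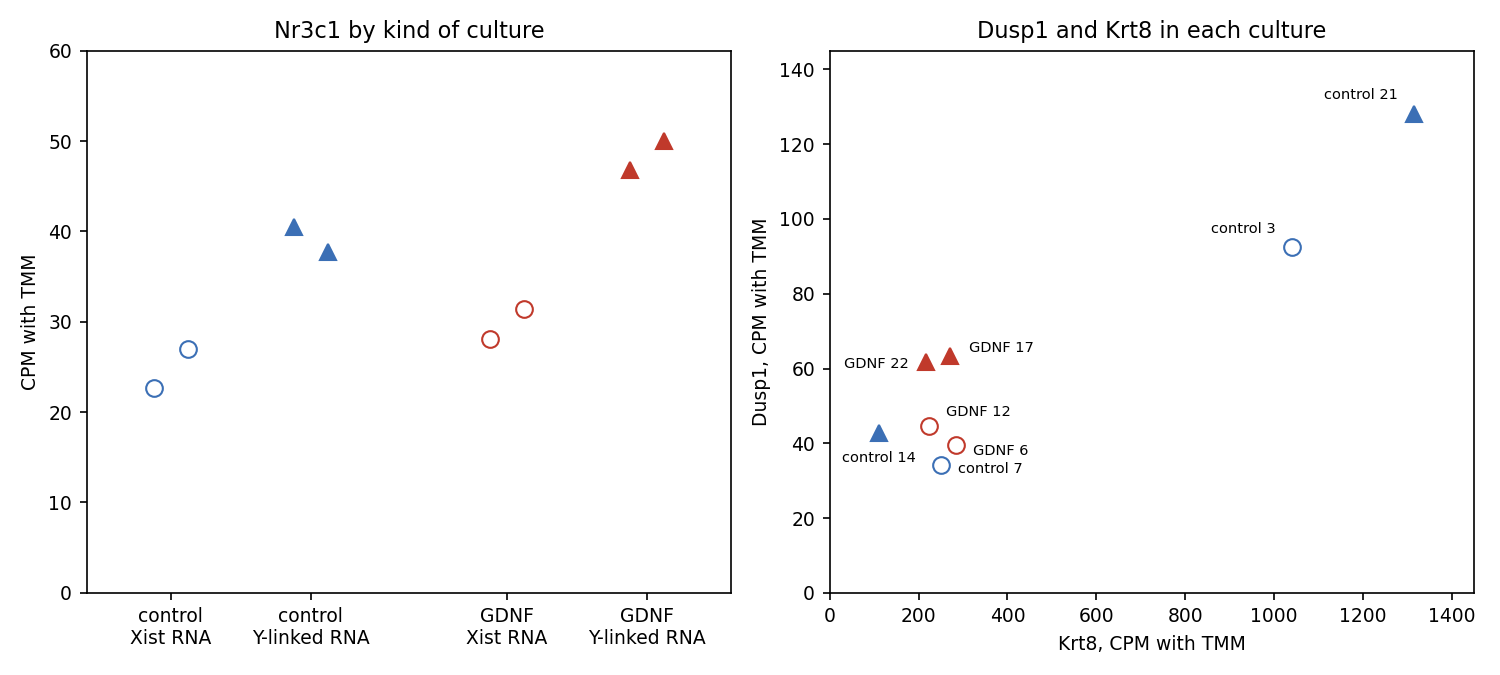
Left, *Nr3c1* CPM (linear axis from 0) by group and kind of culture, where all open circles (Xist RNA, 22.6 to 31.4 CPM) lie below all filled triangles (Y-linked RNA, 37.8 to 50.0 CPM). Right, *Dusp1* CPM against *Krt8* CPM in each culture, where control cultures 3 and 21 are the highest on both axes.

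*Tsc22d3* encodes GILZ, a leucine zipper protein through which glucocorticoids restrain inflammatory signalling, and lies on chromosome X from 140539528 to 140600522. Control cultures 3, 7, 14 and 21 held 76.3, 53.1, 93.1 and 43.1 CPM, and GDNF cultures 6, 12, 17 and 22 held 37.0, 42.3, 48.0 and 52.4 CPM. Control cultures 3 and 14 were above every GDNF culture, control culture 7 was just above the highest of them, and control culture 21 fell among them. The log2 fold change was -0.56 with a standard error of 0.24 (edgeR, unadjusted p = 0.0395, adjusted p = 0.208), and DESeq2 gave an adjusted p of 0.0995. The unadjusted call was lost without control culture 3 or 14, without GDNF culture 6, 12 or 17, with library size alone as the scaling and with offsets for transcript length (edgeR, adjusted p = 0.349).

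In TPM, *Tsc22d3* was at 17.4 ± 6.03 in controls and 15.6 ± 3.05 after GDNF (exact permutation test, two-sided, p = 0.743, n = 4 each), and without control culture 14 the difference turned from -1.76 to 1.20 TPM. Control culture 14 also had the highest sum of stromal markers (3375 CPM) and the lowest of epithelial markers (447 CPM), and the part of cell makeup in its *Tsc22d3* value was not tested. The tables list 3 transcripts of the gene, of 1973, 1789 and 2148 bases, which share most of their reads. The CPM of *Tsc22d3*, from counts summed over them, thus holds most reads in each of the 3. Its CPM level is therefore too high beside genes with 1 transcript. With 1 transcript per gene the log2 fold change was -0.57 (edgeR, unadjusted p = 0.0399). In every culture the 1973-base transcript had more counts than the 2148-base one, by 46 to 186 reads or 3.83% to 6.60%, so that the reads do not separate the transcripts beyond that small share. Of its relatives *Tsc22d1*, *Tsc22d2* and *Tsc22d4*, *Tsc22d1* had an unadjusted p under 0.05, at 2010 ± 919 CPM in controls and 1191 ± 124 CPM after GDNF (n = 4 each, log2 fold change -0.76, edgeR, unadjusted p = 0.0304, adjusted p = 0.193).

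*Fkbp5* encodes FKBP51, a co-chaperone that binds the HSP90 complex and lowers the receptor's affinity for hormone. It lies on chromosome 17 from 28398753 to 28486149. Control cultures 3, 7, 14 and 21 held 2.74, 5.84, 5.70 and 5.81 TPM, and GDNF cultures 6, 12, 17 and 22 held 5.31, 8.57, 8.43 and 7.62 TPM. Culture 3 stood below the other controls, and GDNF culture 6 fell among the controls while the rest of the GDNF cultures lay above them. The difference of 2.46 TPM was above the SD of each group, but the groups overlapped and the test did not call it (5.02 ± 1.52 against 7.48 ± 1.51 TPM, two-sided exact permutation, p = 0.114). By CPM the groups overlapped further, reaching 14.2 in controls and 16.7 after GDNF, with a log2 fold change of 0.21, a standard error of 0.20 and an adjusted p of 0.557 (edgeR). The paralogue *Fkbp4* (FKBP52), which favours hormone binding and nuclear transport of the receptor, was far more abundant, at 127 ± 25.4 TPM in controls and 130.1 ± 20.1 TPM after GDNF (n = 4 each). In CPM, *Fkbp4* lay between 141 and 265 in controls and between 118 and 185 after GDNF.

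*Klf9*, a Krüppel-like transcription factor, lies on chromosome 19 from 23141226 to 23168129. Its TPM was 8.61, 13.2, 10.9 and 12.9 in control cultures 3, 7, 14 and 21 and 14.6, 16.4, 16.5 and 21.6 in GDNF cultures 6, 12, 17 and 22. All GDNF cultures were above all controls (11.4 ± 2.13 against 17.3 ± 3.03 TPM, n = 4 each, exact permutation test, two-sided, p = 0.0286, the smallest this design allows). Of the 13698 genes that averaged 1 TPM or more, 23.4% were likewise separated with GDNF higher. With each culture's TPM rescaled to a common median, the difference was 2.07 TPM (exact permutation p = 0.143). In CPM the groups overlapped, with controls at 24.1, 27.0, 22.2 and 24.3 and GDNF cultures at 25.5, 26.7, 27.0 and 33.4. The log2 fold change was 0.21 with a standard error of 0.14 (edgeR, adjusted p = 0.402). GDNF culture 22 was the highest culture on both scales.

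*Zbtb16*, which encodes the zinc finger repressor PLZF, lies on chromosome 9 from 48651797 to 48836225 and was near the limit of detection. Control cultures 3, 7, 14 and 21 held 0, 3, 23 and 6 counts, and GDNF cultures 6, 12, 17 and 22 held 22, 13, 33 and 17 counts. Thus 3 of 4 controls were below every GDNF culture and control culture 14 was not. A total of 32 counts in controls and 85 after GDNF came from the full depth of each group. At these depths 3 counts correspond to between 0.00947 and 0.0154 TPM, so the 0 counts of control culture 3 allow a level of up to 0.00947 TPM by counting error alone. The log2 fold change was 1.36 with a standard error of 0.92 (edgeR, unadjusted p = 0.171, adjusted p = 0.398), and without control culture 14 it was 2.66 (unadjusted p = 0.0184). In TPM the exact permutation test, two-sided, gave p = 0.0571 (0.0278 ± 0.0344 against 0.0892 ± 0.0335, n = 4 each).

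*Dusp1* and *Errfi1* encode brakes on growth factor signalling. The DUSP1 phosphatase inactivates p38, JNK and ERK kinases, and the ERRFI1 protein (MIG6) binds and inhibits the EGF receptor, whose ligand EGF was in the medium of all cultures. *Dusp1* lies on chromosome 17 from 26505591 to 26508472 and *Errfi1* on chromosome 4 from 150853796 to 150868889.

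*Dusp1* varied more between control cultures than any of the other genes except *Zbtb16*. Its CPM was 92.4, 34.2, 42.7 and 128.1 in control cultures 3, 7, 14 and 21 and 39.6, 44.5, 63.4 and 61.8 in GDNF cultures 6, 12, 17 and 22. The GDNF cultures all lay between the lower and the upper pair of controls or among the lower pair. The log2 fold change of -0.51 had a standard error of 0.39 and a 95% interval from -1.26 to 0.25 (edgeR, adjusted p = 0.451). In TPM the means were 58.3 ± 38.9 and 54.1 ± 14.4 (exact permutation test, two-sided, p = 0.943), and the difference turned to 14.4 TPM higher after GDNF without control culture 21.

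The 2 controls with high *Dusp1*, 3 and 21, were also the cultures with high simple-epithelium keratins. Their *Krt8* was at 1041 and 1315 CPM against 112 to 285 CPM in the other 6 cultures, and their *Krt18* at 1074 and 1216 CPM against 116 to 366 CPM. These keratins were singled out after their values were seen, and their part in the *Dusp1* values was not tested. They were not alone in this pattern. *Dusp10* was at 38.7 and 38.8 CPM in these 2 controls, against 6.45 to 14.2 CPM in the other 6 cultures. *Fosl1*, *Hsp90aa1* and *Cdkn1a* were likewise highest in control cultures 3 and 21.

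*Errfi1* was the most abundant of the 7 genes. Its CPM was 297, 243, 419 and 292 in control cultures 3, 7, 14 and 21 and 196, 288, 314 and 256 in GDNF cultures 6, 12, 17 and 22. Control culture 14 was the highest and GDNF culture 6 the lowest, and the rest overlapped. The log2 fold change was -0.25 with a standard error of 0.21 (edgeR, adjusted p = 0.493). In TPM the sign was the opposite, at 159 ± 48.3 in controls and 175 ± 37.8 after GDNF (exact permutation test, two-sided, p = 0.600, n = 4 each). For its targets *Egfr*, *Erbb2*, *Erbb3* and *Erbb4*, 0 of 4 had an unadjusted p under 0.05. All 4 had a positive fold change (median log2 fold change 0.50), and 3 of 4 did with offsets for transcript length. The count of higher genes was 2 with the kind of culture as a covariate or without control culture 7. It was 1 without GDNF culture 17 or 22 and with library size as the scaling. *Egfr* was at 53.7 ± 12.9 CPM in controls and 63.4 ± 22.5 CPM after GDNF, and *Erbb2* at 25.5 ± 2.99 and 32.8 ± 6.55 CPM (edgeR, unadjusted p = 0.0612).

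**Figure D3:**
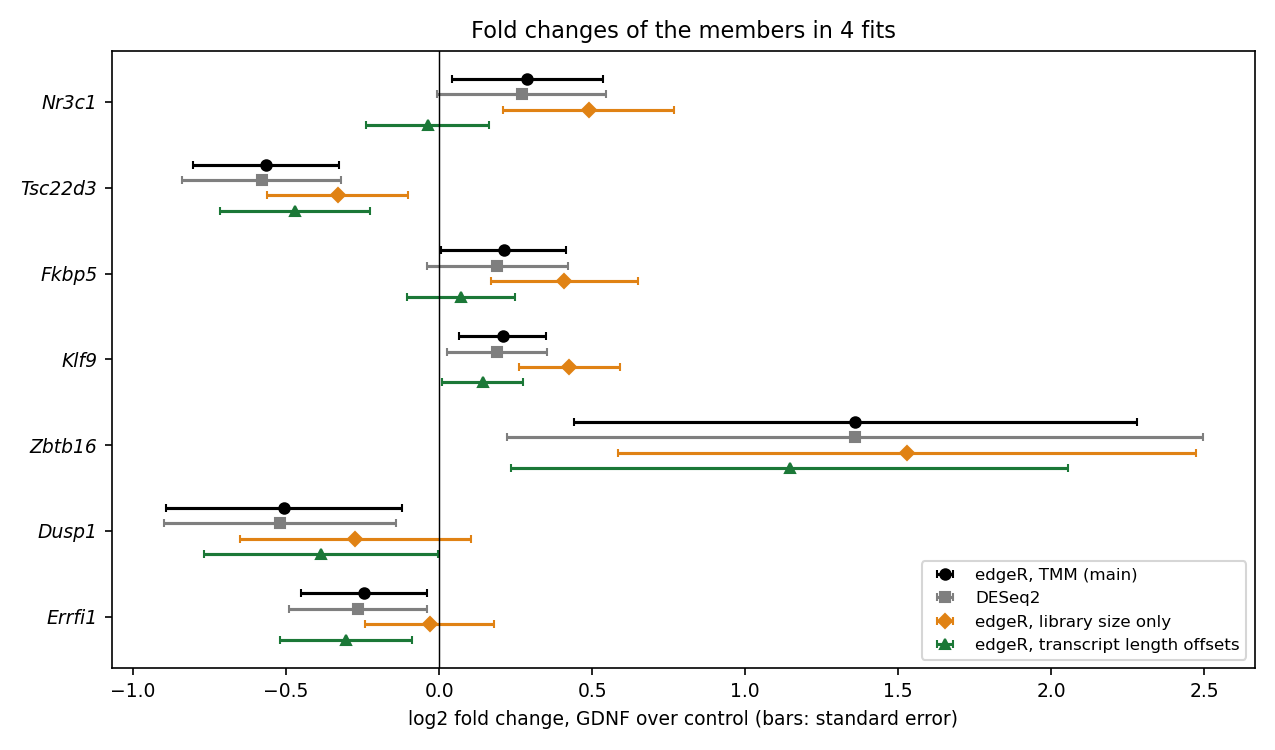
Log2 fold changes of the 7 genes, GDNF over control (horizontal axis, linear, bars give the standard error), in 4 fits of the same counts. Bars of *Tsc22d3* stay left of 0 in every fit, *Zbtb16* has the widest bars, and *Nr3c1* moves from 0.49 with library size only to -0.04 with transcript length offsets.

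The promoters of *Dusp1*, *Errfi1* and *Klf9* are shown because these genes also answer to growth factor and cyclic AMP signals. Letters of such response elements were found there, in *Klf9* as a loose form only. Promoter windows, from RefSeq on GRCm38.p6, were found for 5 of the 7 genes and run from 250 bases before a start to 50 after it. They were searched on both strands. The full receptor element, AGAACA and TGTTCT set 3 bases apart, was in 3 of 32851 windows of all genes (0.00913%) and in none of these genes. The half-site AGAACA, present in 16.1% of windows, was in 1 window of *Tsc22d3*, 185 bases before the start. The cyclic AMP response element TGACGTCA, in 1.55% of all windows, was in *Dusp1* and in 1 window of *Errfi1*. The pattern TGANTCA, a loose form of the AP-1 site with any base at N, was in 6.75% of windows. It was in *Klf9*, where the letters were TGAATCA. The E-box CACGTG, in 6.02%, was in *Dusp1* and *Fkbp5*. The 250 bases before the start are given 5′ to 3′ on the strand of the gene, with matches to the cyclic AMP element, the loose AP-1 pattern and the E-box in capitals.
*Dusp1*, chr17:26508473-26508722, minus strand: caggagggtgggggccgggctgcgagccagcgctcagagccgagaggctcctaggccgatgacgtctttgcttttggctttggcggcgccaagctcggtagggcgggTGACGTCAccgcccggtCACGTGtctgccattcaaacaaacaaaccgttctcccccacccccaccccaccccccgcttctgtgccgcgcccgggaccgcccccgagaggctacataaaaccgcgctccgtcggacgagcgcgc
*Errfi1*, chr4:150854820-150855069, plus strand: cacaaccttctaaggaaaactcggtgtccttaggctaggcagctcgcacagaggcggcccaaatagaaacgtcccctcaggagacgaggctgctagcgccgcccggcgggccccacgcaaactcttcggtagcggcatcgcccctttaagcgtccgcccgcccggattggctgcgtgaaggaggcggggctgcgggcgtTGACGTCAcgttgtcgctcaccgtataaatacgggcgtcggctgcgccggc
*Klf9*, chr19:23140976-23141225, plus strand: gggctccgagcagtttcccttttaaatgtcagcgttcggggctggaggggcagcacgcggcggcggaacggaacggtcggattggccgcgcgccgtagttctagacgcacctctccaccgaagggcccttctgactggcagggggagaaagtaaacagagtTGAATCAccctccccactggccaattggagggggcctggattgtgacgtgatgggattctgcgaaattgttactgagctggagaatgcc
In *Dusp1* the cyclic AMP element began 143 bases and the E-box 126 bases before the start, and in *Klf9* the loose AP-1 match 89 bases before it. In *Errfi1* the cyclic AMP element began 51 bases before the start to which the window shown belongs. That start lies inside the gene span given above. The *Errfi1* window just before the gene span, chr4:150853546-150853795, held no cyclic AMP element. A match of letters is not evidence of binding, and the receptor often binds far from promoters, outside these windows.

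Around the receptor, 8 of 10 chaperone genes had a negative fitted fold change. Of the 10, 5 were lower and 0 higher at an unadjusted p of 0.05, against 12.9% lower and 9.25% higher among all genes, and the median log2 fold change was -0.49. The 5 were *Hspa8*, the constitutive HSP70, at 811 ± 167 CPM in controls and 511 ± 63.5 CPM after GDNF (log2 fold change -0.67), *Bag1*, a nucleotide exchange factor (-0.62), *Stip1*, which links HSP70 to HSP90 (-0.58), *Ptges3*, the p23 co-chaperone that stabilizes the mature complex (-0.51), and *Hsp90ab1*, an HSP90 itself (-0.48). By edgeR, 0 of the 10 passed an adjusted p of 0.05, whereas DESeq2 called 4, against 14.7% of all genes for which it gave an adjusted p. *Hspa8* was at 1030, 623, 803 and 787 CPM in control cultures 3, 7, 14 and 21 and at 564, 438, 564 and 477 CPM in GDNF cultures 6, 12, 17 and 22, with all controls above all GDNF cultures, as for 13.2% of all genes in either direction. The count of lower chaperones was 4 to 6 with each culture left out, 7 with offsets for transcript length and 2 with library size as the scaling, when 1 gene was higher.

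The nuclear partners of the receptor had the opposite sign, with 13 of 13 coregulator genes positive and, with offsets for transcript length, 11 of 13. Of the 13, 8 were higher (61.5%) and 0 lower at an unadjusted p of 0.05, against 9.25% higher and 12.9% lower among all genes, and the median log2 fold change was 0.41. They included *Nrip1* (0.68), *Ep300* (0.57), *Ncoa1* (0.52), *Crebbp* (0.50), *Ncoa2* (0.49), *Ncor1* (0.36) and *Smarca4* (0.34), among which are acetyltransferases and coactivators as well as corepressors. Their transcripts were long, with a median of 7329 bases for the list against 2674 bases for all genes. With offsets for transcript length, 1 of the 13, *Nrip1*, was higher (7.69%, against 5.62% of all genes), and the median was 0.14. Without control culture 3 the count was 3, without GDNF culture 12 or 22 it was 2 and without GDNF culture 17 it was 3. *Nrip1*, the corepressor RIP140, was at 76.0, 175, 126 and 166 CPM in control cultures 3, 7, 14 and 21 and at 183, 216, 200.2 and 271 CPM in GDNF cultures 6, 12, 17 and 22, so that all GDNF cultures were above all controls, where 13.2% of all genes separated in either direction (edgeR, adjusted p = 0.180). By edgeR and by DESeq2, 0 of the 13 passed an adjusted p of 0.05, and DESeq2 called 4 at an unadjusted p of 0.05.

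Genes of ligand supply showed no call. Of *Hsd11b1*, *Hsd11b2*, *H6pd* and *Nr3c2*, 0 of 4 had an unadjusted p under 0.05 in edgeR or DESeq2. *Hsd11b1*, whose enzyme regenerates active hormone, had 0.848 ± 0.563 TPM in controls and 0.789 ± 0.451 TPM in GDNF cultures, and *Hsd11b2*, whose enzyme inactivates it, at 0.873 ± 0.343 and 1.25 ± 0.569 TPM (n = 4 each). *H6pd*, which supplies the cofactor of HSD11B1, was at 22.4 ± 7.34 and 32.6 ± 7.79 TPM. In CPM, *H6pd* overlapped between groups, at 102 to 179 in controls and 109 to 187 after GDNF.

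A wider list of 34 other genes known to be induced by glucocorticoids gave 32 tested, of which 0 were higher and 4 were lower (12.5%) at an unadjusted p of 0.05, against 9.25% higher and 12.9% lower among all genes, with a median log2 fold change of -0.04. The share of lower genes was thus near that of all genes. The 4 were *Anxa1*, the anti-inflammatory annexin, *Cdkn1c*, a cell cycle inhibitor, and the metallothioneins *Mt1* and *Mt2*. DESeq2 called the same 4 at an adjusted p of 0.05, against 14.7% of all genes. *Anxa1* was at 746 ± 181 CPM in controls and 406 ± 53.0 CPM after GDNF (log2 fold change -0.88, edgeR, unadjusted p = 0.0012), and *Cdkn1c* at 40.1 ± 7.35 and 20.9 ± 6.14 CPM (-0.94). *Mt1* fell from 171 ± 65.2 CPM to 91.3 ± 7.26 CPM by DESeq2's adjusted test (edgeR log2 fold change -0.91), and *Mt2* had a log2 fold change of -0.77. For these 4 genes edgeR's adjusted p was 0.167. *Sgk1*, the kinase of sodium transport, was at 377 ± 91.2 and 415 ± 120.0 CPM and *Per1*, a clock gene, at 6.05 ± 1.66 and 8.65 ± 1.71 CPM (n = 4 each), and neither had an unadjusted p under 0.05. The count of lower genes was 4 to 7 with each culture left out and 3 with offsets for transcript length, where *Mt2* was no longer called and *Mt1* had a log2 fold change of -0.59. The count of higher genes was 2 without GDNF culture 6, without control culture 14 and with the kind of culture as a covariate, and with library size as the scaling 4 were higher and 4 lower. Of 14 inflammatory genes that the receptor represses, 12 were tested and 0 had an unadjusted p under 0.05, including *Ptgs2*, at 133 ± 53.3 and 146 ± 54.9 CPM, and *Mmp13*, at 102 ± 50.2 and 72.4 ± 30.0 CPM.

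**Figure D4:**
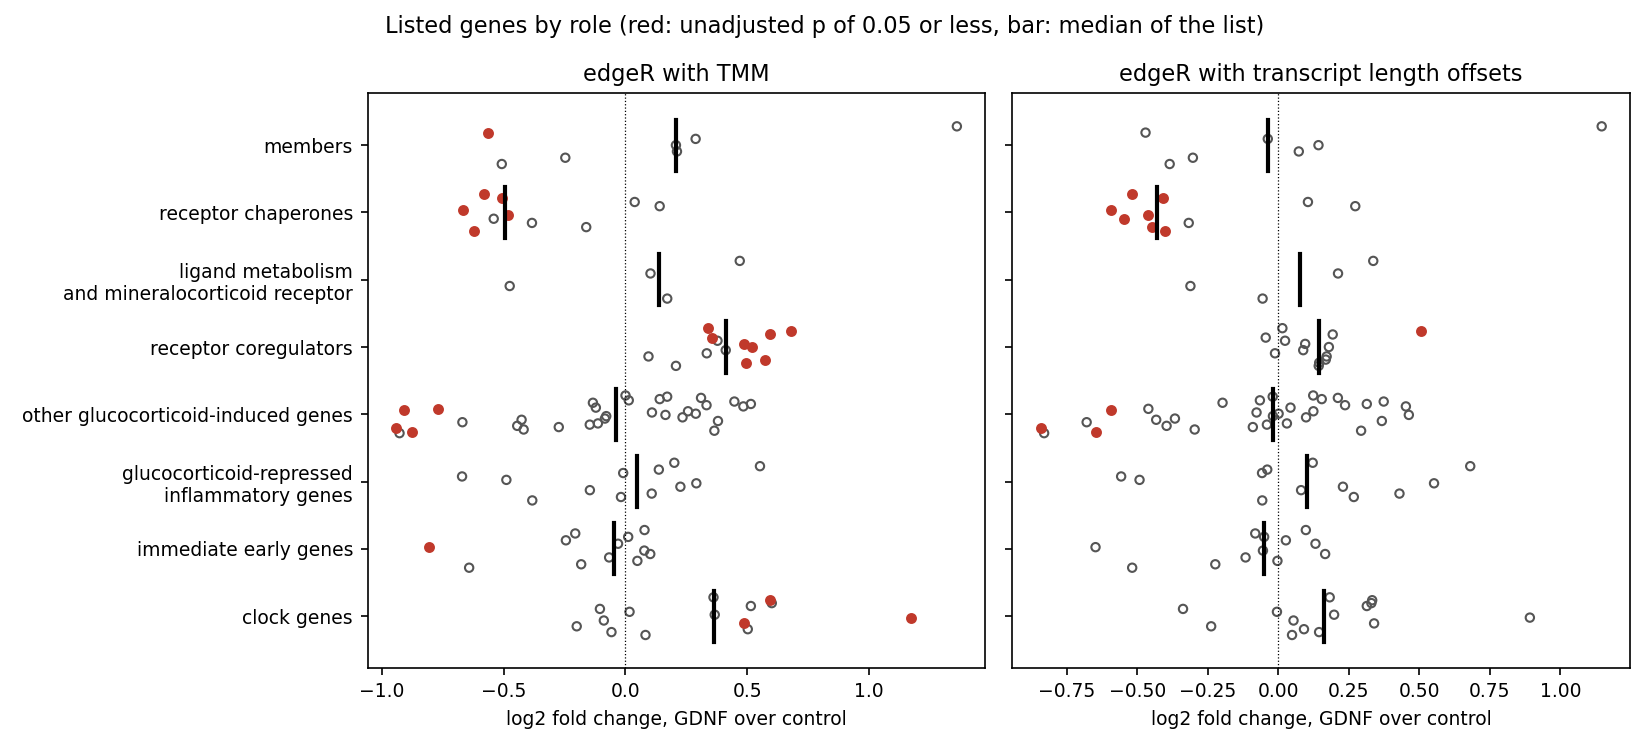
Log2 fold changes of listed genes, GDNF over control (horizontal axis, linear), 1 point for each gene, in edgeR with TMM (left) and with transcript length offsets (right). Red points passed an unadjusted p of 0.05 and the black bar is the list's median. The chaperone medians (-0.49 and -0.43) lie left of 0 in both panels, while the 8 red coregulators of the left panel are reduced to 1 in the right panel.

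Relatives and downstream lists of the responsive genes are read against the 9.25% of all genes that were higher and the 12.9% that were lower at an unadjusted p of 0.05. Among 13 tested relatives of *Fkbp5*, 5 were lower (38.5%), *Fkbp1a* (log2 fold change -0.51), *Fkbp3* (-0.59), *Fkbp2* (-0.50), *Fkbp11* (-0.76) and *Fkbp7* (-0.71), but 1 was with offsets for transcript length and 0 were with library size as the scaling. The count was 1 to 6 with each culture left out, being 1 without GDNF culture 22, 2 without GDNF culture 12 or control culture 14 and 3 without control culture 3. *Klf7* was higher among 12 tested relatives of *Klf9* (log2 fold change 0.42, 1 of 12 or 8.33%), and *Dusp16* among 9 relatives of *Dusp1* (0.35, 1 of 9 or 11.1%). Of 12 immediate early genes, which like *Dusp1* answer quickly to growth factors, *Fosl1* was lower (-0.80, 1 of 12 or 8.33%). That count was 0 without control culture 3 or 21 or GDNF culture 6, 12 or 22, and 2 without control culture 7. It was also 0 with offsets for transcript length or library size as the scaling. Of 10 ERK feedback genes 0 had an unadjusted p under 0.05, and *Dusp6* was at 261 ± 39.2 and 233 ± 5.52 CPM and *Spry1* at 191 ± 25.2 and 237 ± 35.7 CPM. Of 14 clock genes, which glucocorticoids can set through *Per1*, *Hlf* (1.17), *Per3* (0.60) and *Cry2* (0.49) were higher (3 of 14 or 21.4%), while 0 were with offsets for transcript length or without GDNF culture 17, 1 was without control culture 21 and 7 were with library size as the scaling. In each of these lists edgeR called 0 genes at an adjusted p of 0.05. DESeq2 called 0 except for 2 relatives of *Fkbp5*, against 14.7% of all genes for which it gave an adjusted p.

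The 7 genes did not all move together across cultures. Over the 21 pairs, Pearson's r of log2 CPM over the 8 cultures ran from -0.47 (*Klf9* with *Errfi1*) to 0.76 (*Nr3c1* with *Zbtb16*). *Nr3c1* with *Fkbp5* and *Fkbp5* with *Zbtb16* each gave 0.63, while *Tsc22d3* with *Klf9* gave -0.41 and *Zbtb16* with *Dusp1* -0.35. The pair of *Tsc22d3* and *Errfi1* gave 0.73. Both of the latter 2 genes had their highest value in control culture 14. Among 11460 genes with a mean of at least 5 CPM, the gene most like in pattern was *Impact* for *Nr3c1* (r = 0.98), *Hiatl1* for *Tsc22d3* (0.99), *Tbc1d2b* for *Fkbp5* (0.99), *Coro1c* for *Dusp1* (0.997) and *Bcat1* for *Errfi1* (0.98). Next came *Sntb2* and *Gsdmd* for *Nr3c1*, *C1qtnf5* and *Mfrp*, which overlap each other in the genome, for *Tsc22d3*, and *Fam208b* and *Arhgef18* for *Fkbp5*. For *Klf9*, *Pot1b* and *Rabgap1l* were among the 3 nearest. For *Dusp1* they were *Ppp2r1b* and *Lmna*, and for *Errfi1* *Sgpp1* and *Tpm2*. At its few counts, *Zbtb16* was nearest to *Snx32*, *Rps6kb2* and *Pkmyt1*. With 8 cultures and this many genes compared, high values of r arise readily, and they are given as a description of pattern only.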

How the data were processed

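RNA-Seq libraries of 4 GDNF and 4 control cultures (SMART-Seq v4, poly-A selection) were analysed from the deposited tables, 1 per culture. Reads were mapped by the authors with STAR to mm10, equivalent to GRCm38, on the BasePair platform, and the submitters' processing notes also name featureCounts and DESeq2. Versions and strand handling are not given in the sources used here. The counts, as deposited, are unnormalized whole numbers for each RefSeq transcript. TPM was computed by the authors, with a common total in all cultures. The deposited FPKM values served only to obtain transcript lengths.

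Counts were summed per gene symbol. Genes were filtered with filterByExpr and compared by the quasi-likelihood test of edgeR 4.0.16 (R 4.3.3, TMM scaling), with Benjamini-Hochberg adjustment over the 16557 genes left. The standard error was taken as the absolute log2 fold change divided by the square root of F, and the 95% interval from it by the normal distribution. TPM was taken from each gene's transcript of highest mean count and compared by exact two-sided permutation over 70 assignments. Alternatives were DESeq2 1.42.0, other scalings and filters, a robust fit, 1 transcript per gene, the kind of culture (Xist or Y-linked RNA) as a covariate and leaving out each culture. Transcript length offsets (splines with 5 degrees of freedom) and rescaled TPM were added after seeing the data. The scripts were tested on simulated counts.

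The 7 genes and the gene lists were chosen with earlier results of these data known. All 7 genes are named, with, for each list, genes at an unadjusted p of 0.05 or less (at most 8), otherwise the 2 most abundant, and the 3 genes of nearest pattern. Of the genes this rule gives, 2 are not reported here. Groups came from the treatment labels. The labels name separate cultures but not separate mice, so p-values measure the spread between these cultures. The lane of each culture is not given in the sources used here. Symbols of the lists were found for 183 of 184 genes. Intervals and floors from counts cover counting error only. Figures used Python 3.11.15 with matplotlib 3.10.9.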

Additional observations from a re-analysis of the deposited data

Results flagged for a closer look

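Of 28 groups of 4 cultures checked for a culture far from the others (each of the 7 genes in TPM and in CPM, in each group), 1 was picked out by Dixon's test. It was *Fkbp5* in the control cultures, where culture 3, at 2.74 TPM, lay below cultures 7, 14 and 21. Chance picks out about 1 in 20 such groups. Control culture 3 also had the largest share of counts in short transcripts and the lowest normalization factor, and their part in this value was not tested.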

How the results depend on the processing

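No paired analysis was run. The GDNF and control cultures share no culture numbers, and no source used here says which were prepared together. In order of number, control cultures 3, 7, 14 and 21 would be matched with GDNF cultures 6, 12, 17 and 22. *Nr3c1* was then at 22.6, 27.0, 40.5 and 37.8 CPM in controls and 28.1, 31.4, 46.8 and 50.0 CPM after GDNF. It was higher in each pair, as were *Fkbp5* and *Zbtb16*, while the rest of the 7 genes were mixed in sign. Whether these cultures form pairs was not tested. In 18 alternative fits of the counts, or 17 for *Zbtb16*, which a filter at 1 CPM removed, the log2 fold changes of the 7 genes kept their sign, except that *Nr3c1* turned to -0.037 with offsets for transcript length. No fit called any of the 7 genes at an adjusted p of 0.05. The number called at an unadjusted p of 0.05 was 1 in the main fit, 0 with offsets for transcript length and 0 to 1 with each culture left out. With library size as the scaling, which moves the median log2 fold change of all genes to 0.25, the 1 gene was *Klf9* in place of *Tsc22d3*, and without control culture 14 it was *Zbtb16*. The adjusted p of *Tsc22d3* ranged from 0.0824 to 0.412.

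For the TPM differences, *Klf9* lost its separation as CPM (3.78 CPM, p = 0.0857 by exact permutation) and as rescaled TPM (2.07, p = 0.143), and with each culture left out it lay between 4.43 and 6.77 TPM. With each culture left out, *Fkbp5* ranged from 1.70 to 3.18 TPM, the latter without GDNF culture 6 (exact permutation p = 0.0286), and *Tsc22d3* from -3.26 to 1.20 TPM, the latter without control culture 14. *Dusp1* ranged from -14.2 to 14.4 TPM, being 1.16 without GDNF culture 6 and 14.4 without control culture 21, and on log2(TPM + 1) its difference was 0.065. *Errfi1* turned to -49.1 as CPM and -29.5 as rescaled TPM. The cause of these changes was not tested. Low counts bear on *Zbtb16*, which held 0 to 33 counts per culture.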
